A study of Arabidopsis thaliana with 11 samples.

Results

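The loss of NGATHA activity was examined for a set of 93 Arabidopsis thaliana genes that were moderately lower on average over 4 nga-deficient arrays of 2 genotypes and that carry no name beyond their nuclear locus number. NGA1, NGA2, NGA3 and NGA4 encode closely related B3-domain transcription factors, which act redundantly in the growth of lateral organs and in the formation of the style and stigma at the top of the gynoecium. They are known to work with other regulators of apical gynoecium development and to affect auxin synthesis there. A gene that depends on them, directly or at a distance, is therefore looked for among transcripts that are lower when all of them are lost.

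Each member is a probe set, a group of short probes read out as 1 value, that the platform annotation assigns to 1 gene named only by its locus. Members had a log2 value of 4 or more on at least 4 of the 11 arrays, the highest of the 4 nga-deficient arrays lay below the lowest of the 7 arrays labelled wild type, and the mean difference lay between -1.8 and -0.7 on the log2 scale. This held for 93 of the 8749 locus-named probe sets that passed the value condition, or 1.06%, and these belonged to 93 genes. Of all 17910 probe sets that passed, 774 lay below the controls with no overlap at any size (4.32%) and 548 above them (3.06%), and 234 met the conditions on values (1.31%). The others were 118 that the annotation does not list, 20 with a symbol or a plastid gene name and 3 with several genes. Because the comparison of nga-deficient and wild-type arrays chose the members, its values are given below as a description and carry no test.

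RNA came from inflorescences with flowers of stage 12 and younger, from 30-day-old plants of the Ler ecotype, and was hybridised to Affymetrix ATH1 arrays. There were 7 arrays labelled wild type, called control arrays here, of which 3 (replicates 2, 3 and 4) carry a note of long days. A further 2 arrays came from the nga quadruple mutant, which carries the alleles nga1-1 and nga2-1 together with nga3-1 and also nga4-1, and 2 from 35S:miR-NGA plants, called amiR-NGA here, in which an artificial microRNA against the same 4 genes is driven by the 35S promoter of a plant virus, active in most tissues. The labels do not say whether the amiR-NGA plants were 1 line or several, or whether replicates came from separate plantings. Tests therefore measure only the spread between these arrays, which may be technical. In whole inflorescences, fewer cells of a type and less RNA per cell cannot be told apart.

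The targeted gene NGA1 (AT2G46870) went against the labels. On control replicates 1 to 4 it measured 5.65, 5.602, 5.99 and 5.85, below the 6.95 and 6.50 of the quadruple mutant, and on control replicates 5 to 7 it measured 10.50, 11.003 and 10.51. The amiR-NGA arrays gave 5.02 and 4.88. For NGA4 and NGA3 the nga-deficient arrays did not overlap the controls, with mean log2 differences of -1.49 and -1.33. NGA2 measured 4.68 and 4.77 in the quadruple mutant, below every control array (lowest 5.19), and 5.34 and 5.47 in amiR-NGA, within the control range, although the labels name it among the microRNA's targets. Array medians lay between 6.08 and 6.27. For the GAPDH control, the 3-prime signal exceeded the 5-prime one by 1.05 to 1.29 (log2) on control replicates 1 and 2 and quadruple mutant replicate 1, against 0.084 to 0.48 on the other arrays. The actin control did not set these 3 arrays apart in that way, at 3.45, 3.74 and 4.17 against 4.05 to 4.35.

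Against control replicates 1 to 4 alone the median difference of the 93 members was -0.99, and against replicates 5 to 7 alone it was -0.80. The same rule then took 166 and 110 genes, 87 and 66 of them among the 93. Tissue identity could not be checked with floral organ identity genes, because 0 of the 8 genes chosen were measured here as a single gene. AT5G07230, a gene of the tapetum in young anthers, was bright, at 12.11 ± 0.28 (SD, n = 7) on the control arrays and 12.00 ± 0.28 (SD, n = 4) on the nga-deficient arrays. The other tapetum and early anther genes measured, AMS and SPL, were dimmer, at 6.72 ± 0.36 and 7.33 ± 0.40 (SD, n = 7) on the control arrays.

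Most members were lower by less than a factor of 2. The median difference was -0.89, a 1.85-fold lower level, and the folds ran from 1.64 to 3.32. In 26 members the mean log2 difference was -1 or below. The members covered part of the range of expression, with control means from 4.58 to 11.97, against 3.59 to 14.09 over all 17910 probe sets. Their median was 7.78, against 6.99 over all probe sets. In 7 members the nga-deficient mean was under 4.5, close to or below the minimum of 4 in the rule, and in 2 of them it was under 4. The gap between the lowest control array and the highest nga-deficient array ran from 0.0057 to 1.22, with 12 members at 0.5 or more and 21 under 0.1.

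**Figure D1:**
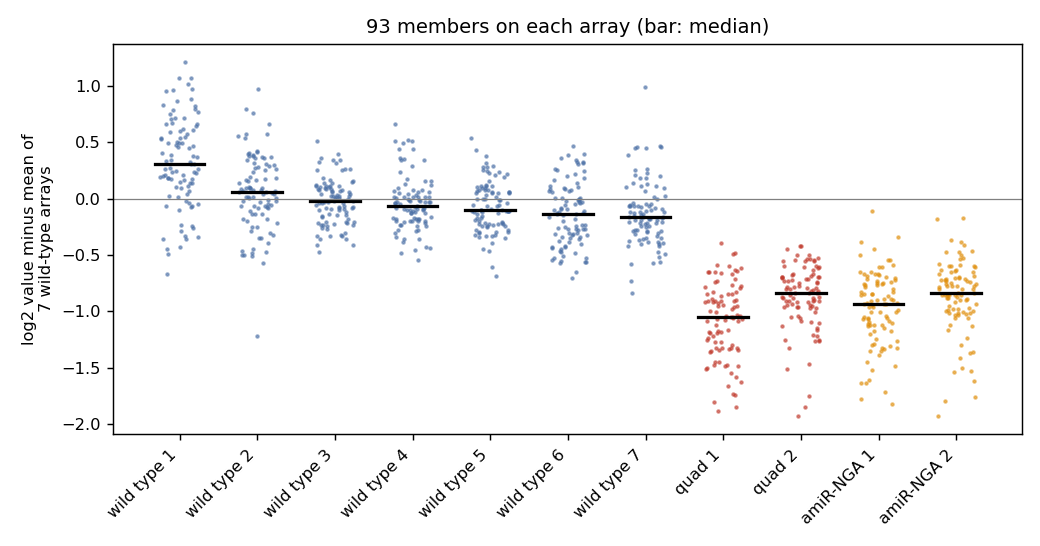
Each point is 1 of the 93 members on 1 array, as its log2 value minus the mean of the 7 control arrays, with the arrays along the x axis. The black bar is the array's median: between -1.05 and -0.84 on the 4 nga-deficient arrays, and from -0.16 on control replicate 7 to 0.31 on control replicate 1.

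The members varied among arrays of the same kind. Control replicate 1 stood highest, with a median of 0.31 above the control mean, and was the highest of the 7 control arrays for 44 of the 93 members (47.3%), against 19.9% of all probe sets. Control replicates 6 and 7 were lowest for 28 and 23 members (30.1% and 24.7%), against 11.1% and 13.3% of all probe sets. Among the nga-deficient arrays, quadruple mutant replicate 1 was lowest for 46 members (49.5%), against 42.3% of all probe sets. For amiR-NGA replicate 1 it was 30 members (32.3%), against 17.3% of all probe sets. The SD over the control arrays had a median of 0.32 for the members and 0.24 for all probe sets. High control values and low nga-deficient values are what the rule asks for, so the members' spread is not independent of it.

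Control replicate 1 and quadruple mutant replicate 1, which had the highest and the lowest median, are both arrays with a high GAPDH difference. Without the 3 arrays of high GAPDH difference the median difference was -0.78, and it was smaller in size for 73 of the 93 members. It then lay above -0.7 for 32 members and below -1.8 for 1, AT5G18600, so that 60 of them met the rule. The difference shrank by more than 1.5 times for 10 members: AT1G25550, AT1G74150, AT2G35680, AT3G12850, AT3G60300, AT3G61260, AT4G10950, AT4G19160, AT5G59080 and AT5G63190. The ratio was largest in AT3G12850, from -0.75 to -0.39, and AT4G10950, from -0.76 to -0.40. How far RNA quality contributes to the members' differences was not tested.

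**Figure D2:**
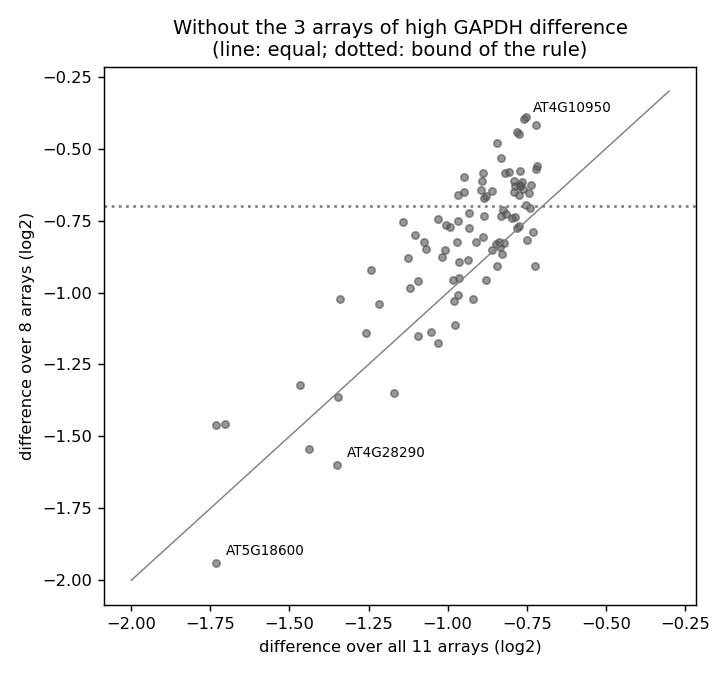
The mean log2 difference of each member over all 11 arrays (x axis) is set against that over the 8 arrays without control replicates 1 and 2 and quadruple mutant replicate 1 (y axis). Most points lie above the line of equality, 32 of them above the dotted bound at -0.7, while AT5G18600 lies below the line.

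The members were grouped by what their loci are known to encode. The gene table used here gives these loci no description beyond 2 synonyms, so the families named below are background knowledge of the loci. A family is given for 61 members, and no role is given for the other 32.

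Transcriptional regulators numbered 7, with a median difference of -1.02 and 4 members at -1 or below. AT4G01460, a basic helix-loop-helix factor, had the widest gap of all 93 members. AT4G01460 measured 5.14 and 5.51 on the quadruple mutant arrays and 5.25 and 5.26 on the amiR-NGA arrays, against a lowest value of 6.73, a median of 6.82 and a highest of 7.58 on the control arrays. Every nga-deficient value was more than 1.2 below every control value. Its means were 7.02 ± 0.38 (SD, n = 7) on the control arrays and 5.29 ± 0.16 (SD, n = 4) on the nga-deficient arrays. The level was 3.32-fold lower. AT4G01460 lies 5 loci from NGA4 (AT4G01500), which both genotypes target. The difference was -1.46 without the 3 arrays of high GAPDH difference.

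AT1G70000, a MYB-related factor, and AT1G32700, a zinc-binding protein of the PLATZ family, also had wide gaps. AT1G70000 measured 5.397 and 5.35 on the quadruple mutant arrays and 5.42 and 5.23 on the amiR-NGA arrays, against a lowest value of 5.95, a median of 6.25 and a highest of 6.78 on the control arrays. AT1G32700 measured 8.27 and 8.25 on the quadruple mutant arrays and 8.41 and 8.54 on the amiR-NGA arrays, against a lowest value of 9.04, a median of 9.299 and a highest of 10.25 on the control arrays. Neither overlapped, and in both the highest control value was that of replicate 1. The mean differences were -0.93 and -1.09. AT1G76110, which combines an HMG box with an ARID DNA-binding domain, averaged 7.09 ± 0.35 (SD, n = 7) on the control arrays and 6.18 ± 0.054 (SD, n = 4) on the nga-deficient arrays. The spread of its 4 nga-deficient values was the narrowest of all members. AT1G68670 and AT1G25550 belong to the same MYB-like GARP family, several members of which act in the response to nitrate and phosphate supply. AT1G68670 averaged 8.58 ± 0.27 (SD, n = 7) on the control arrays and 7.79 ± 0.15 (SD, n = 4) on the nga-deficient arrays, and AT1G25550 7.602 ± 0.46 (SD, n = 7) on the control arrays and 6.46 ± 0.32 (SD, n = 4) on the nga-deficient arrays. Without the 3 arrays of high GAPDH difference the difference of AT1G25550 was -0.75 in place of -1.14. AT3G46600, a GRAS-domain factor, completed the group with a difference of -1.02.

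Redox enzymes numbered 7, 5 of them at -1 or below, and had the lowest median of the groups, -1.09. AT5G18600 encodes a glutaredoxin, a small protein that reduces disulphides with glutathione. AT5G18600 measured 6.27 and 5.81 on the quadruple mutant arrays and 6.03 and 5.95 on the amiR-NGA arrays, against a lowest value of 6.53, a median of 8.09 and a highest of 8.34 on the control arrays. Control replicate 2 was far below the other controls, yet above all nga-deficient arrays, and the SD over the controls, 0.67, was the largest of any member. The mean difference was -1.73, and -1.94 without the 3 arrays of high GAPDH difference, to which control replicate 2 belongs.

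AT5G43450, AT1G03400 and AT1G04350 are 2-oxoglutarate-dependent dioxygenases, iron enzymes that hydroxylate or desaturate small molecules. AT5G43450 measured 4.54 and 4.39 on the quadruple mutant arrays and 4.08 and 4.102 on the amiR-NGA arrays, against a lowest value of 5.25, a median of 5.62 and a highest of 6.09 on the control arrays. AT1G03400 measured 5.54 and 6.15 on the quadruple mutant arrays and 5.499 and 5.51 on the amiR-NGA arrays, against a lowest value of 6.51, a median of 6.92 and a highest of 8.03 on the control arrays. In AT5G43450 the quadruple mutant values lay above the amiR-NGA values. AT1G03400 was highest on control replicate 1, and among the nga-deficient arrays on quadruple mutant replicate 2. AT1G03410 (2A6), of the same family and no member, gave differences of 2.34 in the quadruple mutant and 0.022 in amiR-NGA with its brighter probe set. AT1G04350 had a mean difference of -1.09. The short-chain dehydrogenases AT2G29340 and AT2G37540 had -0.99 and -0.98, the latter with an nga-deficient mean of 4.05. AT1G52590, a thiol-disulphide oxidoreductase of the DCC family, averaged 7.77 ± 0.29 (SD, n = 7) on the control arrays and 6.74 ± 0.15 (SD, n = 4) on the nga-deficient arrays.

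**Figure D3:**
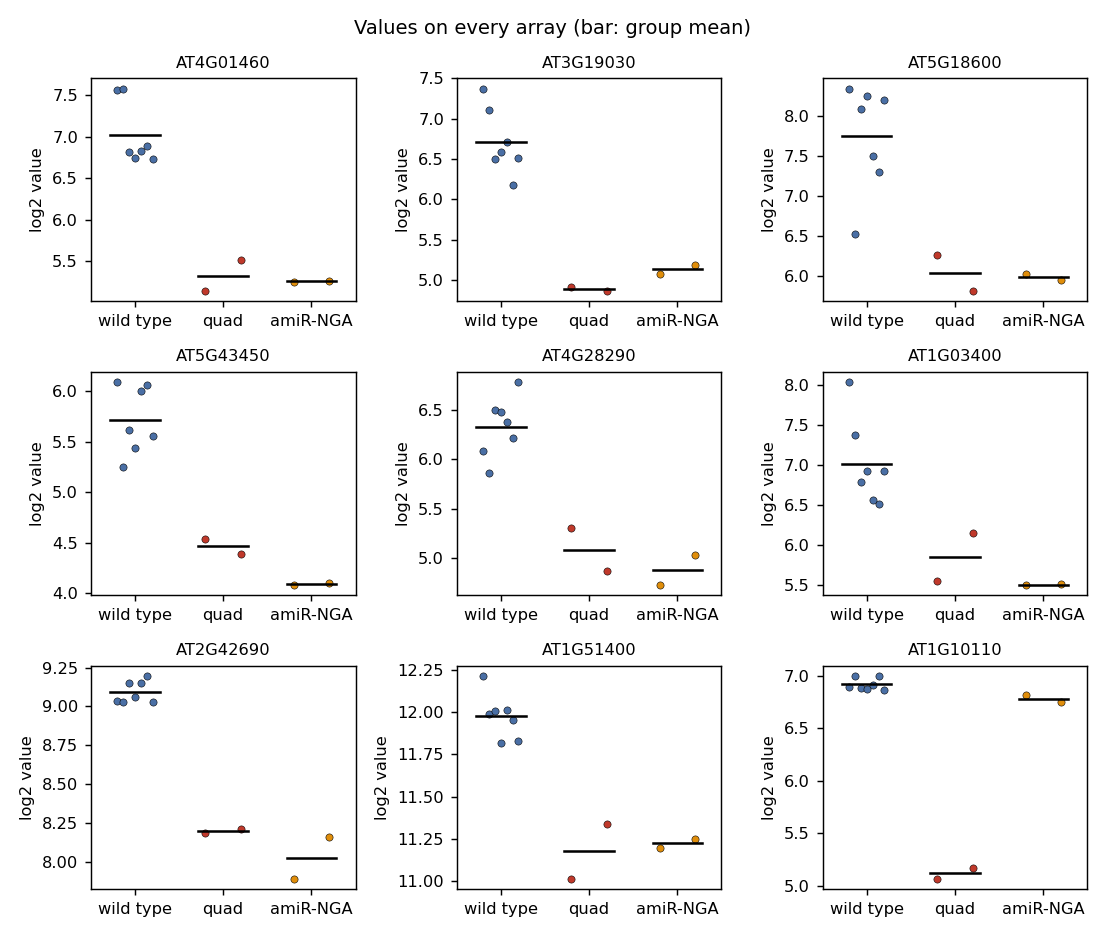
Log2 values of 9 members on every array, with 1 panel per gene and the 7 control, 2 quadruple mutant (quad) and 2 amiR-NGA arrays as points; the bar is the group mean. In the last panel AT1G10110 is at 5.07 and 5.17 in the quadruple mutant and at 6.82 and 6.75 in amiR-NGA, just below the lowest control value of 6.87.

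Lipid-related proteins numbered 6, with a median difference of -0.89. AT2G42690, a phospholipase of the lipase superfamily, was among the steadiest members. AT2G42690 measured 8.18 and 8.22 on the quadruple mutant arrays and 7.89 and 8.16 on the amiR-NGA arrays, against a lowest value of 9.03, a median of 9.06 and a highest of 9.19 on the control arrays. The control arrays spanned less than 0.17, and the lowest of them exceeded the highest nga-deficient array by 0.81. Its means were 9.09 ± 0.071 (SD, n = 7) on the control arrays and 8.11 ± 0.15 (SD, n = 4) on the nga-deficient arrays. AT5G48490, a bright lipid-transfer protein, averaged 11.26 ± 0.21 (SD, n = 7) on the control arrays and 10.38 ± 0.33 (SD, n = 4) on the nga-deficient arrays, with 10.62 and 10.67 in the quadruple mutant and 9.97 and 10.27 in amiR-NGA. AT5G54170, a START-type lipid-binding protein, had a difference of -0.89, and AT5G24210, a class-three lipase, one of -0.89. AT5G24210 stood apart on control replicates 1 and 2, at 6.49 and 6.57 against 5.33 to 5.61 on the other controls. The GDSL-type enzymes, a large family of plant esterases and lipases, were AT1G29660 (-1.35, to an nga-deficient mean of 4.22) and AT4G10950 (-0.76).

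Transporters numbered 4. AT1G08230, a transporter of the amino acid GABA, showed the largest difference between the genotypes in the group. AT1G08230 measured 5.202 and 5.68 on the quadruple mutant arrays and 6.26 and 6.46 on the amiR-NGA arrays, against a lowest value of 6.62, a median of 6.9996 and a highest of 7.17 on the control arrays. Both genotypes lay below the controls, the quadruple mutant further. AT1G33110, a MATE efflux carrier, averaged 7.55 ± 0.37 (SD, n = 7) on the control arrays and 6.43 ± 0.36 (SD, n = 4) on the nga-deficient arrays. AT1G60160, a potassium transporter of the KUP family, had a difference of -0.79. AT1G68570, listed as NPF3.1 of the family of nitrate and peptide transporters, had one of -0.72, and on quadruple mutant replicate 1 it measured 9.52 against a lowest control value of 9.56. The difference of the quadruple mutant from amiR-NGA was below 0 in all 4 transporters, but none passed the limma test, and over all probe sets 58.2% had this sign. It was -0.92 in AT1G08230 and -0.028 in AT1G68570, where the genotypes' arrays overlapped.

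Chloroplast proteins numbered 4, all between -0.97 and -0.74. AT1G51400, a small protein of photosystem II, was the brightest of the 93 members. AT1G51400 measured 11.01 and 11.34 on the quadruple mutant arrays and 11.195 and 11.25 on the amiR-NGA arrays, against a lowest value of 11.82, a median of 11.99 and a highest of 12.21 on the control arrays. The nga-deficient arrays formed a tight group below the controls, a 1.71-fold lower level. AT2G35260 and AT4G17840 encode related thylakoid membrane proteins that act in chlorophyll metabolism. AT2G35260 averaged 10.21 ± 0.17 (SD, n = 7) on the control arrays and 9.47 ± 0.078 (SD, n = 4) on the nga-deficient arrays. AT4G17840 measured 7.47 and 7.63 in the quadruple mutant and 6.702 and 7.07 in amiR-NGA, against a lowest control value of 7.81. AT1G64680, a protein related to carotenoid isomerases, measured 7.45 and 7.37 in the quadruple mutant and 6.86 and 6.86 in amiR-NGA, against a lowest control value of 7.86.

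Photosynthesis genes were read beside these. Of 34 genes 8 were measured, with a median difference of -0.40, which was -0.32 in the quadruple mutant and -0.50 in amiR-NGA. Of the 8 genes 3 passed the limma test of nga-deficient against control arrays (adjusted p under 0.05), all lower. The background for lower calls was 3.09% of probe sets. The summed level of the 8 ran from 14.94 to 15.40 on the control arrays and from 14.64 to 14.83 on the nga-deficient arrays, in log2 units. Of 19 genes of carbon fixation and photorespiration 5 were measured, with 2 lower calls. Their median was -0.43, which was -0.24 in the quadruple mutant and -0.66 in amiR-NGA. Their summed level ran from 13.33 to 13.72 and from 12.72 to 13.03. None of these 13 measured genes is among the 93, but their absence says little. All except AT1G11860 and AT1G80380 carry a symbol, so the rule could not take them whatever their values. The part that a different share of green tissue has in the members' differences was not tested.

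Lists for other cell types gave 0 lower calls by the same limma test, against the background of 3.09% of probe sets. So few of their genes were measured that 0 calls say little. Of 13 pollen genes 8 were measured, with a median of 0.29, which was 0.45 in the quadruple mutant and -0.052 in amiR-NGA. Of 11 tapetum and early anther genes 3 were measured (median -0.11), and of 11 regulators of the style, stigma and transmitting tract 4 (median -0.13). The 1 ovule gene measured of 6, INO, was higher (0.86), with control values of 4.48 to 4.98, close to the minimum of 4 in the rule.

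F-box and kelch proteins and protease inhibitors numbered 6, with a median difference of -0.97. F-box proteins choose the targets of ubiquitin ligases, and kelch repeats often serve in that choice. AT3G23880, an F-box protein, had the widest gap of the group. AT3G23880 measured 6.33 and 6.92 on the quadruple mutant arrays and 7.005 and 7.07 on the amiR-NGA arrays, against a lowest value of 7.77, a median of 8.01 and a highest of 8.75 on the control arrays. Control replicate 1 was the highest and quadruple mutant replicate 1 the lowest. AT1G23390, an F-box protein with kelch repeats, averaged 9.94 ± 0.31 (SD, n = 7) on the control arrays and 8.97 ± 0.35 (SD, n = 4) on the nga-deficient arrays. The kelch-repeat proteins AT1G74150 and AT2G29600 had differences of -0.78 and -0.79. AT2G38870, an inhibitor of the potato type I family, which blocks serine proteases, averaged 8.89 ± 0.24 (SD, n = 7) on the control arrays and 7.77 ± 0.36 (SD, n = 4) on the nga-deficient arrays. AT1G72290, a Kunitz-type protease inhibitor, was the dimmest member. AT1G72290 measured 3.92 and 3.704 on the quadruple mutant arrays and 3.41 and 3.41 on the amiR-NGA arrays, against a lowest value of 3.97, a median of 4.36 and a highest of 5.57 on the control arrays. All nga-deficient values were below the minimum of 4 that the rule asked of some arrays, and the control values ranged widely. The mean difference was -0.97.

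Signalling and growth proteins numbered 5, none at -1 or below. AT1G22690, a gibberellin-regulated peptide of the GASA family, averaged 5.72 ± 0.40 (SD, n = 7) on the control arrays and 4.79 ± 0.078 (SD, n = 4) on the nga-deficient arrays. AT1G34750, a PP2C protein phosphatase, averaged 6.46 ± 0.26 (SD, n = 7) on the control arrays and 5.49 ± 0.30 (SD, n = 4) on the nga-deficient arrays. AT3G61260 is a remorin, a protein of plasma membrane domains. AT3G61260 measured 8.51 and 8.99 on the quadruple mutant arrays and 8.93 and 8.94 on the amiR-NGA arrays, against a lowest value of 9.14, a median of 9.62 and a highest of 10.905 on the control arrays. Control replicate 1 exceeded the next control array by over 1.1, and the difference was -0.48 in place of -0.85 without the 3 arrays of high GAPDH difference. The receptor-like kinase AT1G66880 had a difference of -0.77 and the phosphatase AT2G35680 one of -0.72.

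Other enzymes numbered 6, with 3 at -1 or below. AT3G10720 encodes a pectin methylesterase, which alters the pectin of the cell wall. AT3G10720 measured 6.81 and 7.35 on the quadruple mutant arrays and 7.16 and 7.53 on the amiR-NGA arrays, against a lowest value of 7.91, a median of 8.31 and a highest of 8.61 on the control arrays. It was 2.11-fold lower on average. AT2G32160, a methyltransferase, measured 5.33 and 5.24 in the quadruple mutant and 4.95 and 4.75 in amiR-NGA, against a lowest control value of 5.83. AT4G37550, a formamidase-like enzyme, averaged 10.25 ± 0.30 (SD, n = 7) on the control arrays and 9.25 ± 0.25 (SD, n = 4) on the nga-deficient arrays. The next locus, AT4G37560, of the same family, lay outside the bounds with a difference of -1.99. The hydrolase AT2G41250, the glucosylceramidase AT4G10060 and the metallo-hydrolase AT1G29700 had differences of -0.88, -0.76 and -0.84.

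A further 16 members are known by a domain or a feature. AT4G28240, of a wound-responsive family, averaged 10.405 ± 0.43 (SD, n = 7) on the control arrays and 9.19 ± 0.16 (SD, n = 4) on the nga-deficient arrays, with 11.28 on control replicate 1 against 10.003 to 10.48 on the other controls. AT3G29240, with a domain of unknown function, was the brightest of these, at 10.98 ± 0.38 (SD, n = 7) on the control arrays and 9.91 ± 0.18 (SD, n = 4) on the nga-deficient arrays. AT1G67870, a glycine-rich protein, varied widely among controls. AT1G67870 measured 5.81 and 5.72 on the quadruple mutant arrays and 5.36 and 5.82 on the amiR-NGA arrays, against a lowest value of 6.16, a median of 6.601 and a highest of 7.51 on the control arrays. AT1G65230 and AT2G46220 share another domain of unknown function and had differences of -0.83 and -0.96. AT1G15740, with leucine-rich repeats, had one of -0.93. The others were AT1G14340 with an RNA recognition motif, AT1G52870 of the Mpv17 family of peroxisomal and mitochondrial membrane proteins, AT1G53560, AT1G71480, AT2G19650, AT2G39790, AT3G26510, AT3G28220, AT3G47250 and AT5G63190. Together with AT2G46220 these 11 had differences from -0.98 to -0.75.

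**Figure D4:**
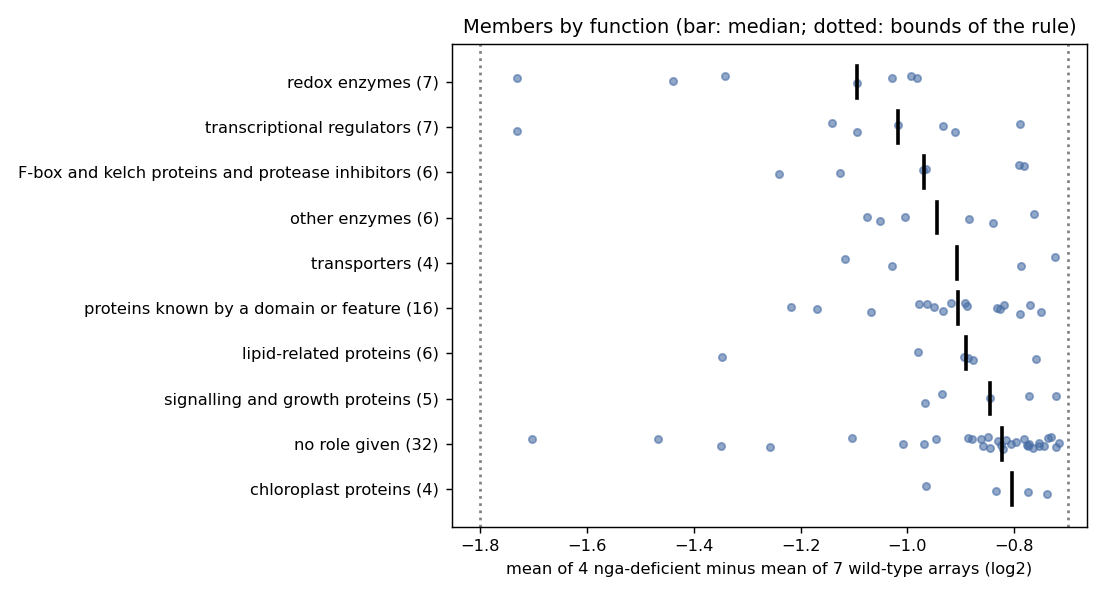
Mean log2 difference between the 4 nga-deficient and the 7 control arrays for each member (points), by function group with its number of members; the bar is the median and the dotted lines are the bounds of the rule. Medians run from -1.09 for redox enzymes to -0.80 for chloroplast proteins.

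Among the 32 members with no role given, 6 were at -1 or below and the median was -0.82. AT3G19030 had the second widest gap of all members. AT3G19030 measured 4.91 and 4.86 on the quadruple mutant arrays and 5.08 and 5.19 on the amiR-NGA arrays, against a lowest value of 6.19, a median of 6.59 and a highest of 7.37 on the control arrays. All 4 nga-deficient arrays lay close together, 0.997 or more below the lowest control, and the level was 3.26-fold lower. AT4G28290 and AT1G67910 followed. AT4G28290 measured 5.3003 and 4.87 on the quadruple mutant arrays and 4.72 and 5.03 on the amiR-NGA arrays, against a lowest value of 5.86, a median of 6.38 and a highest of 6.78 on the control arrays. AT1G67910 measured 5.24 and 5.28 on the quadruple mutant arrays and 5.198 and 5.42 on the amiR-NGA arrays, against a lowest value of 5.97, a median of 6.58 and a highest of 7.02 on the control arrays. Control replicate 1 was the highest for AT1G67910 but below the median for AT4G28290. AT4G25170 averaged 8.299 ± 0.26 (SD, n = 7) on the control arrays and 7.195 ± 0.40 (SD, n = 4) on the nga-deficient arrays and AT5G43870 6.68 ± 0.21 (SD, n = 7) on the control arrays and 5.86 ± 0.069 (SD, n = 4) on the nga-deficient arrays.

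AT1G10110, also with no role given, did not follow the rest. AT1G10110 measured 5.07 and 5.17 on the quadruple mutant arrays and 6.82 and 6.75 on the amiR-NGA arrays, against a lowest value of 6.87, a median of 6.8995 and a highest of 6.999 on the control arrays. The control arrays spanned 0.13, and amiR-NGA lay within 0.12 of the lowest of them. Its membership therefore rests on the quadruple mutant, where the difference was -1.8003, against -0.14 in amiR-NGA. The remaining loci with no role given were AT2G14910, AT5G55620 and AT5G53900, which lay next to a bound of the rule, and AT1G22885, AT1G30260, AT2G04690, AT2G04790, AT2G15695, AT2G16190, AT2G21185, AT3G07310, AT3G12850, AT3G16220, AT3G48200, AT3G60300, AT4G10910, AT4G15545, AT4G19160, AT4G28260, AT4G33660, AT4G33666, AT5G02550, AT5G11070, AT5G38980, AT5G57785 and AT5G59080. The last 23 of these had control means from 4.75 to 10.85 and differences from -1.47, in AT4G33666, to -0.73.

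At the bounds of the rule, AT4G01460 and AT5G18600, both at -1.73, were the nearest to -1.8 from inside, and AT5G47610 (-1.91) and AT4G37560 (-1.99) from outside. At the other end AT2G14910 (-0.72) and AT2G35680 (-0.72) lay inside, AT1G66130 (-0.70) and AT4G15430 (-0.69) outside. By the gap, AT5G53900 (0.0057) and AT5G55620 (0.013) were just inside, while AT1G15320 and AT2G44230 overlapped, with gaps of -0.0039 and -0.00503.

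The quadruple mutant was set against amiR-NGA to see how alike the members' levels were in both. This difference is a separate contrast from that of the rule, although the rule bounds how far it can go. The quadruple mutant differed from the controls by a median of -0.94 and amiR-NGA by -0.89, with the same control arrays in both. Members ran from -1.83 to -0.50 in the quadruple mutant and from -1.77 to -0.14 in amiR-NGA. The median of the difference between the genotypes was -0.047, against -0.052 over all 17910 probe sets, and 54 of 93 members (58.1%) were lower in the quadruple mutant, against 58.2% of all probe sets.

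By limma over all probe sets 1 member differed between the genotypes, AT1G10110, against a background of 0.134% of probe sets. It was lower in the quadruple mutant (limma log2 difference -1.66, SE 0.13, adjusted p = 0.000137), in both mutant arrays against both amiR-NGA arrays. The call ended with the replicate number as a block (limma adjusted p = 0.108) and over the 4 nga-deficient arrays alone (adjusted p = 0.169). The estimate stayed at -1.66 in both, with SE 0.16 and 0.13, and these fits leave fewer arrays to measure the spread. Over the other alternatives that kept both arrays of each genotype, the limma adjusted p ran from 2.95e-05 to 0.00976. No other member passed this limma test. At an unadjusted p under 0.05 there were 12 members (12.9%), against 7.21% of all probe sets, 6 lower and 6 higher in the quadruple mutant.

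The next member was AT1G08230, with a difference of -0.92 (95% interval -1.41 to -0.44, adjusted p = 0.346 by limma), followed by AT5G53900 at -0.65 (adjusted p = 0.523). The 6 members higher in the quadruple mutant at an unadjusted p under 0.05 were AT2G37540 at 0.70, AT1G04350 at 0.67, AT4G17840 at 0.66 (95% interval 0.23 to 1.09, limma adjusted p = 0.612), AT1G64680 at 0.55, and AT5G38980 and AT5G48490 at 0.53. AT1G29660, at 0.68, was as large but had a wider error (SE 0.41). The SE of the difference had a median of 0.28 over members, so these values leave room for sizeable differences in either direction. For AT4G01460 the difference was 0.070 (95% interval -0.598 to 0.74), and for AT2G42690 it was 0.17 (-0.14 to 0.49). By function group, differences below 0 were counted in 2 of 7 redox enzymes, 2 of 6 lipid-related proteins, 4 of 7 transcriptional regulators and 2 of 4 chloroplast proteins. They were counted in 5 of 6 F-box and kelch proteins and inhibitors, 4 of 5 signalling and growth proteins, 4 of 6 other enzymes, 9 of 16 proteins known by a domain and 18 of 32 with no role given. These shares were not tested against the 58.2% of all probe sets.

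**Figure D5:**
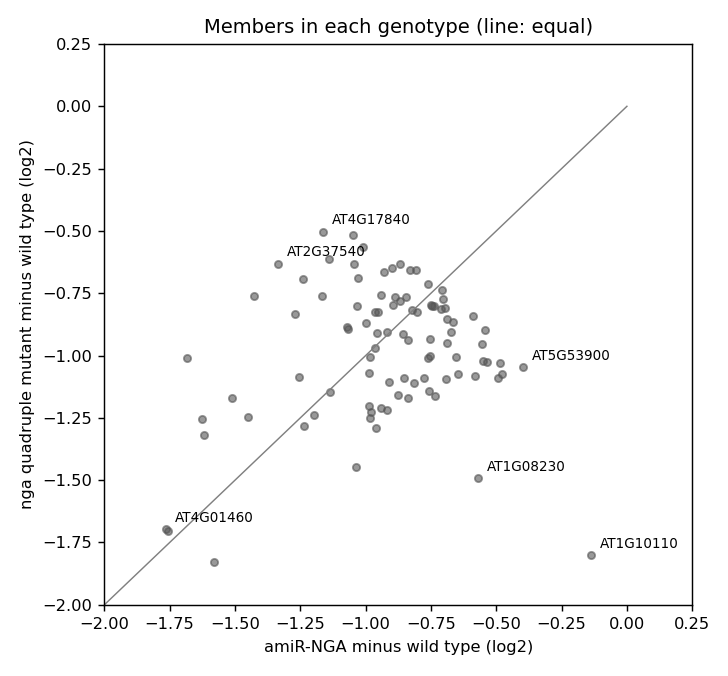
For each of the 93 members, the mean log2 difference of amiR-NGA from the controls (x axis) is set against that of the quadruple mutant (y axis), with equality as a line. AT1G10110 stands alone at -0.14 and -1.8003, and AT1G08230 lies at -0.57 and -1.49; both axes share the 7 control arrays.

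The control arrays with and without the long-days note were compared next, since the labels differ there and the rule did not use that contrast. By limma 0 of 93 members and 0 of 17910 probe sets passed (a background of 0%), with 5 members (5.38%) and 289 probe sets (1.61%) at an unadjusted p under 0.05. The median difference of the members was -0.011, and 0.017 over all probe sets. Differences among members ran from -0.49 to 0.59, the highest in AT5G55620. Against controls with the note the members' median difference was -0.87, and against those without it -0.90.

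By position, 33 members lie on chromosome 1 (35.5%, against 26.4% of the other locus-named probe sets measured) and 14 on chromosome 5 (15.1%, against 24.0%). Chromosomes 2, 3 and 4 hold 18, 14 and 14. In the order of loci, 11 of the 93 members (11.8%) have another member within 5 loci, against 2.49% of the other locus-named genes measured. The pairs are AT4G28240 and AT4G28260, 2 loci apart, with AT4G28290 3 loci on, AT4G33660 and its next locus AT4G33666, AT1G67870 and AT1G67910, AT4G10910 and AT4G10950, and AT1G29660 and AT1G29700. Over the 7 control arrays AT4G28240 and AT4G28260 gave a Pearson r of 0.88, the highest of these pairs. Both were highest on control replicate 1, at 11.28 and 9.97, and r without that array was not tested. The other pairs within 5 loci ran from r = -0.45, for AT4G28240 and AT4G28290, to 0.47, for AT1G29660 and AT1G29700. Next to members also lie loci with lower levels outside the set, AT4G37560 beside AT4G37550 and AT1G22890, with a difference of -2.87, beside AT1G22885. AT5G57780 (P1R1, -0.91) lies 2 loci from AT5G57785.

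Likeness between members was described by the correlation over the 7 control arrays. AT4G01460 was most like the lipase AT5G24210 (r = 0.985), both high on control replicates 1 and 2. AT1G32700 was most like AT1G15740 (r = 0.971), and AT1G10110 most like AT2G39790 (r = 0.930). For each member this is the highest of 92 values over only 7 arrays, of which control replicate 1 is the highest in 44 members. AT1G10110 had the smallest control SD of all members, 0.056, so its r rests on little variation.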

How the data were processed

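Total RNA of 11 inflorescence samples was measured on Affymetrix ATH1 arrays. The deposited log2 values were made by the authors with GC-RMA, a background correction and normalization of probe signals, in R 2.7.2 with Bioconductor 2.2, per the series' design text and the labels. The values ran from 2.61 to 14.37. Precision is limited by how few arrays there are.

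Of 22810 probe sets, 64 controls were left out and 17910 had a log2 value of at least 4 on at least 4 arrays. Tests used limma 3.58.1 in R 4.3.3 on the kept probe sets, with Benjamini-Hochberg adjustment and a threshold of 0.05: the quadruple mutant against amiR-NGA in a fit of all 11 arrays in 3 groups, and control arrays with against without the long-days note over 7 arrays. Marker lists were read from a limma fit of the 4 nga-deficient against the 7 control arrays. The fits were tested on simulated data. Folds are 2 to the power of the log2 difference.

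The members and lists were chosen with earlier results of these data known. Named genes are up to 5 members with the widest gap in each function group, members past a tested threshold, and those next to a bound of the rule; genes named beyond these were chosen after their values were seen. Function groups were to be drawn from reference descriptions. The gene table used here (TAIR10.1, for names and the order of loci) gives none, so the groups were assigned by hand from general knowledge after the values were seen. A planned search of promoter motifs was not run, since no promoter sequences were used here. The 3 arrays planned to be left out for a high actin difference are those set apart by GAPDH, not by actin. Alternatives covered filters, scaling, weights, moderation, the replicate block, the bounds and left-out arrays.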

Additional observations from a re-analysis of the deposited data

Results flagged for a closer look

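In 52 members the array farthest from the rest was compared with its group, in 7 control and 4 nga-deficient arrays, and 9 of these 104 groups held an array whose gap to the nearest other array was a large part of the group's range. In independent groups chance alone would set about 1 in 20 apart in this way. These groups share the same 11 arrays, and the rule chose their genes by the extremes of those arrays, so that rate need not hold here. Control replicate 1 was the highest control array by such a gap in AT3G23880 (8.75), AT4G28240 (11.28), AT4G25170 (8.83) and AT3G61260 (10.90). Control replicate 7 was the lowest in AT2G35260 (9.85). Quadruple mutant replicate 1 was the lowest nga-deficient array in AT3G61260 (8.51), AT1G74150 (5.58) and AT4G10950 (5.502), and quadruple mutant replicate 2 the highest in AT1G03400 (6.15). AT1G10110 differed between the nga-deficient genotypes, by -1.66 in the quadruple mutant relative to amiR-NGA.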

How the results depend on the processing

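Between the genotypes, 1 member was called and 24 probe sets in all. With the replicate block these counts were 0 and 2, and over the 4 nga-deficient arrays alone 0 and 2. At an unadjusted p under 0.05 the fit of all arrays by limma gave 12 members. Array weights gave 45 probe sets in all, and leaving out 1 array gave 13 (without amiR-NGA replicate 2) to 179 (without quadruple mutant replicate 2). Deviations of same-numbered arrays from their group means correlated from -0.27 to 0.29, the highest for replicate 1 of the quadruple mutant and of amiR-NGA. Whether replicate numbers pair the samples was not tested. For the long-days note, 0 members and 0 probe sets were called by limma, with 5 members at an unadjusted p under 0.05. Array weights gave 6 members and 446 probe sets, the exclusion of the 3 arrays of high GAPDH difference gave 1 probe set, and leaving out 1 array gave 0 to 1. The 93 members became 53 with a gap of at least 0.2, 26 with bounds of -1.8 and -1, 153 with the controls that carry the note, 166 with control replicates 1 to 4 (chosen after NGA1 was seen) and 95 to 127 when 1 array was left out. Fewer arrays make the rule of no overlap easier to meet. The causes of the other changes were not tested. Of 832 alternative values of the mean difference of 52 members, 15 moved by more than the spread between replicates. The sign of these differences was set by the rule, so it says nothing about stability.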
